A study of Mus musculus with 16 samples.

Results

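The genes described here are 31 that make sterols and fatty acids or control that synthesis through the sterol regulatory element-binding proteins (SREBPs). They were picked out by symbol from a list of names, among the 55450 genes that every table lists. They comprise 18 enzymes of sterol synthesis, 8 enzymes of fatty acid synthesis, elongation and desaturation, and 5 genes of sterol sensing and regulation. The 16 libraries are stranded poly(A) RNA sequencing of chondrocytes cultured from mouse joint cartilage in 3% oxygen and 10% serum. There were 4 libraries in each of 4 groups. Bleomycin, which breaks DNA, was used at 50 µg/mL for 24 h after a serum-free hyaluronidase step (4 U/mL, 4 h), with 5 more days in fresh medium. Doxorubicin, a topoisomerase poison, was used at 50 nM for 5 days, with medium renewed every 48 h. Both served the study as inducers of senescence, a lasting growth arrest. Interleukin-1 beta (IL-1β), an inflammatory cytokine used as an acute stress control, was used at 1 ng/mL for 24 h, and vehicle was the same volume of saline for 24 h. No strain, age or sex of the mice is given, and the labels say neither whether vehicle cells received hyaluronidase nor how long they were cultured in all. Effects of the drugs and of time in culture or handling therefore cannot be told apart. The labels do not say that replicates are separate cultures or animals, so p-values measure the spread between these libraries, which may be technical.

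SREBPs are transcription factors held in the endoplasmic reticulum by SCAP and the INSIG proteins while sterols are plentiful. When membrane sterol falls, SCAP carries them to the Golgi, where proteases release the active part. SREBP2 mainly drives genes of cholesterol synthesis, and SREBP1 mainly drives genes of fatty acid synthesis. Their target promoters often hold a sterol regulatory element beside a CCAAT box, the site of nuclear factor Y. Cartilage has no blood vessels, and chondrocytes are known to make cholesterol themselves.

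Promoter sequences are shown because CCAAT was found before the start of most sterol enzymes of the set. RefSeq's promoter table (build GRCm38.p6) held 24 of the 31 genes with 30 transcription starts, and the 250 bases before each start were searched on both strands. The search was for CCAAT, which reads as ATTGG when it lies on the other strand, and for TCACNCCAC, a form of the sterol regulatory element. In the printed windows no match of either pattern overlapped a match of the other. CCAAT was present for 14 of the 15 sterol enzymes in the table (93.3%), Acat2 being the one without, against 37.5% of all 27025 genes there. For Dhcr7, Idi1 and Tm7sf2 it lay only in windows made up wholly of annotated exon bases. Of the sterol enzymes' 18 starts, 9 (50.0%) held 2 or more copies, against 10.1% of all 32851 starts. Among the fatty acid enzymes 1 of 5 held it (Fasn), and among the regulators 3 of 4 (all but Scap). Both sets are small, and a difference from the 37.5% of all genes was not tested. Fdps, Fdft1, Sqle, Scd1, Scd2, Fads1 and Stard4 had no entry there. TCACNCCAC was found before 1 of the 18 sterol starts, that of Hmgcs1, and before 1.05% of all starts. A match describes letters only, and a window without one says nothing about binding. RefSeq and GENCODE starts can differ, and 18 of the 30 windows hold bases of an annotated exon. The windows printed hold none: Hmgcs1 (chr13:119690101-119690350, plus strand), Mvd (chr8:122443423-122443672, minus strand) and Ebp (chrX:8193513-8193762, minus strand) as sterol enzymes with CCAAT, and, for contrast, the fatty acid enzymes Fasn (chr11:120824548-120824797, minus strand), with it, and Acly (chr11:100528001-100528250, minus strand), without. Each reads in the direction of transcription and ends at the base before the start, and capitals mark CCAAT in either orientation or the sterol element.
Hmgcs1: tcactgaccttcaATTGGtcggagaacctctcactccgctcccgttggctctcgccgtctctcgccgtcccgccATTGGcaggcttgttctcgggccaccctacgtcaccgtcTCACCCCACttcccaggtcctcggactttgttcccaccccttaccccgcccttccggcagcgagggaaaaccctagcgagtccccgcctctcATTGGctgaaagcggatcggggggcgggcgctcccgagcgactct
Mvd: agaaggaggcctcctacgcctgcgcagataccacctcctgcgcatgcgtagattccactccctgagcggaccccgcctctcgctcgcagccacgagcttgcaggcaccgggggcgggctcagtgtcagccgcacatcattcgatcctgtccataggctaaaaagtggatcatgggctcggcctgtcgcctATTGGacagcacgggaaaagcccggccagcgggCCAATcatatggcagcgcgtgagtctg
Ebp: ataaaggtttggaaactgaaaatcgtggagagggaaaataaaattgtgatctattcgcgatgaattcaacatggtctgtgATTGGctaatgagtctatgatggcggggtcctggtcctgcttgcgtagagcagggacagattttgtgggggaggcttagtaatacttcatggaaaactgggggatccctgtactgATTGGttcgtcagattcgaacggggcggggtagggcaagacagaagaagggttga
Fasn: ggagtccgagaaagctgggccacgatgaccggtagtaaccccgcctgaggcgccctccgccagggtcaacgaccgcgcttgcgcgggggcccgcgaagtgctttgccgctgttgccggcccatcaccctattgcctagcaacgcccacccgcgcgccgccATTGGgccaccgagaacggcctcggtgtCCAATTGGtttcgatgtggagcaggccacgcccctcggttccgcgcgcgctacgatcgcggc
Acly: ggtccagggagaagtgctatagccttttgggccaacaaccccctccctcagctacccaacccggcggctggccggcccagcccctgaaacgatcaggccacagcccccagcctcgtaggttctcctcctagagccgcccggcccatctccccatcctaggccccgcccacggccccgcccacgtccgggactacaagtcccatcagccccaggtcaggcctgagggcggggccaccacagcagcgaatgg
Hmgcs1 held CCAAT on the other strand at positions -237 to -233, -176 to -172 and -45 to -41, counted back from the start, and the sterol element at -137 to -129. Mvd held it on the other strand at -60 to -56 and on the gene's strand at -27 to -23. Ebp held it at -170 to -166 and -55 to -51, both on the other strand. Fasn held 3 copies, of which 2 overlap between -62 and -55, and Acly held none.

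**Figure D1:**
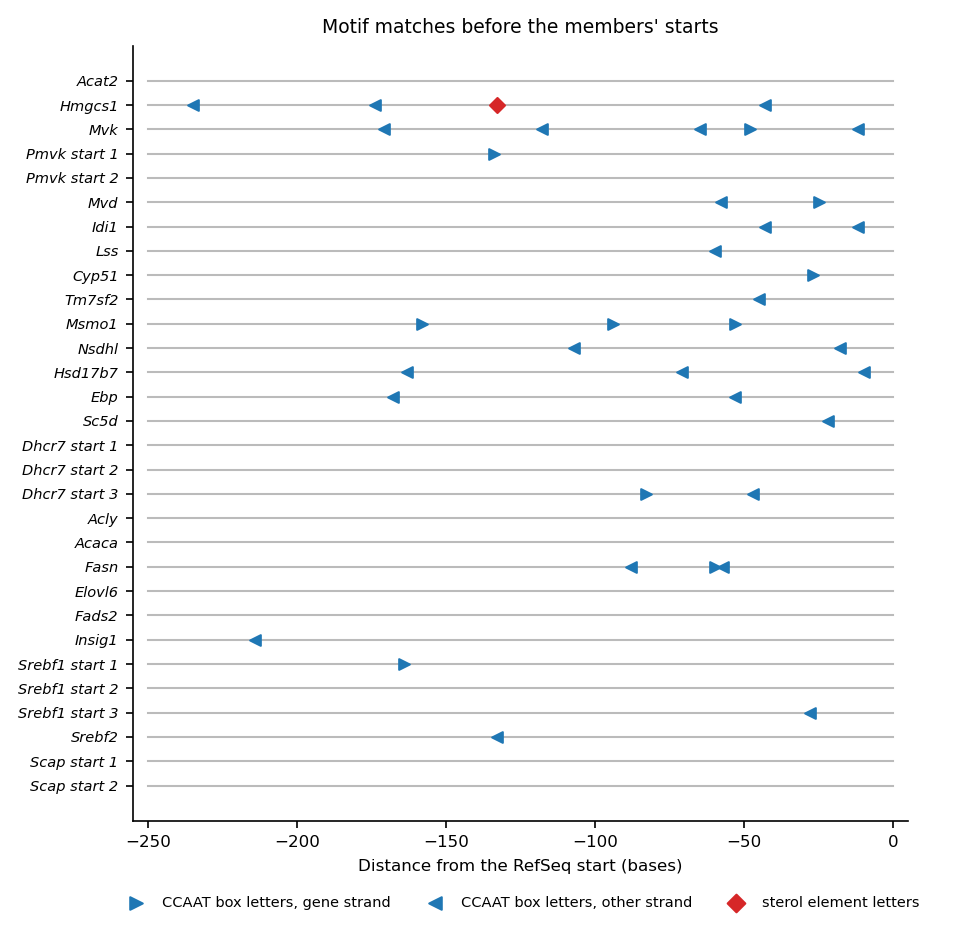
Positions of CCAAT (either strand) and of the sterol element TCACNCCAC in the 250 bases before each RefSeq start of the 24 genes in the promoter table, with distance to the start in bases on the horizontal axis and 1 row per start. A CCAAT mark stands in 14 of the 18 rows of sterol enzymes, where 33.8% of all starts hold CCAAT. The promoter table holds 5 of the 8 fatty acid enzymes. Of these 4 have none, where 37.5% of all genes there hold CCAAT.

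Values are FPKM, fragment counts divided by the length of the gene and by library size, so levels of different genes can be set side by side. Estimated depth was 16.1 to 22.4 M (mega) fragments per library. All 31 genes were at 1.4 FPKM or more in every library, so none entered the tests through 1 group alone. FPKM summed to between 405159 and 423830 in the vehicle and drug libraries and to between 521294 and 559190 after IL-1β. Tests were made on log2(FPKM + 1) with limma over 12976 genes, and a gene was called at a Benjamini-Hochberg adjusted p under 0.05. The added 1 FPKM understates the change of genes of low level. Folds are ratios of group means, levels are mean ± SD (n = 4), and log2 differences carry their SE. All comparisons with vehicle share its 4 libraries. All 9 chondrocyte markers examined, Col2a1, Acan and Sox9 among them, were detected in every group, and the endothelial markers were each under 1 FPKM in every library. Most chondrocyte markers fell in each comparison with vehicle, 7 of 9 after bleomycin (1 rose), 7 of 9 after doxorubicin and 9 of 9 after IL-1β. Of all tested genes 19.0% fell after bleomycin (27.9% rose), 22.8% after doxorubicin and 18.4% after IL-1β. In RNA from whole cultures, fewer cells of a type and less RNA per cell cannot be told apart.

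Most transcripts of sterol synthesis fell after either drug and rose after IL-1β. After bleomycin 15 of the 18 enzymes fell and none rose, where 19.0% of all tested genes fell and 27.9% rose. After doxorubicin 14 fell and none rose, against 22.8% and 25.4% of all genes. After IL-1β all 18 rose, by 1.4-fold (Ebp) to 3.88-fold (Tm7sf2), against 24.5% of genes higher and 18.4% lower. The median log2 difference of the 18 was -0.46 after bleomycin, -0.55 after doxorubicin and 1.39 after IL-1β. Over all tested genes the medians were 0.06, 0.02 and 0.03.

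**Figure D2:**
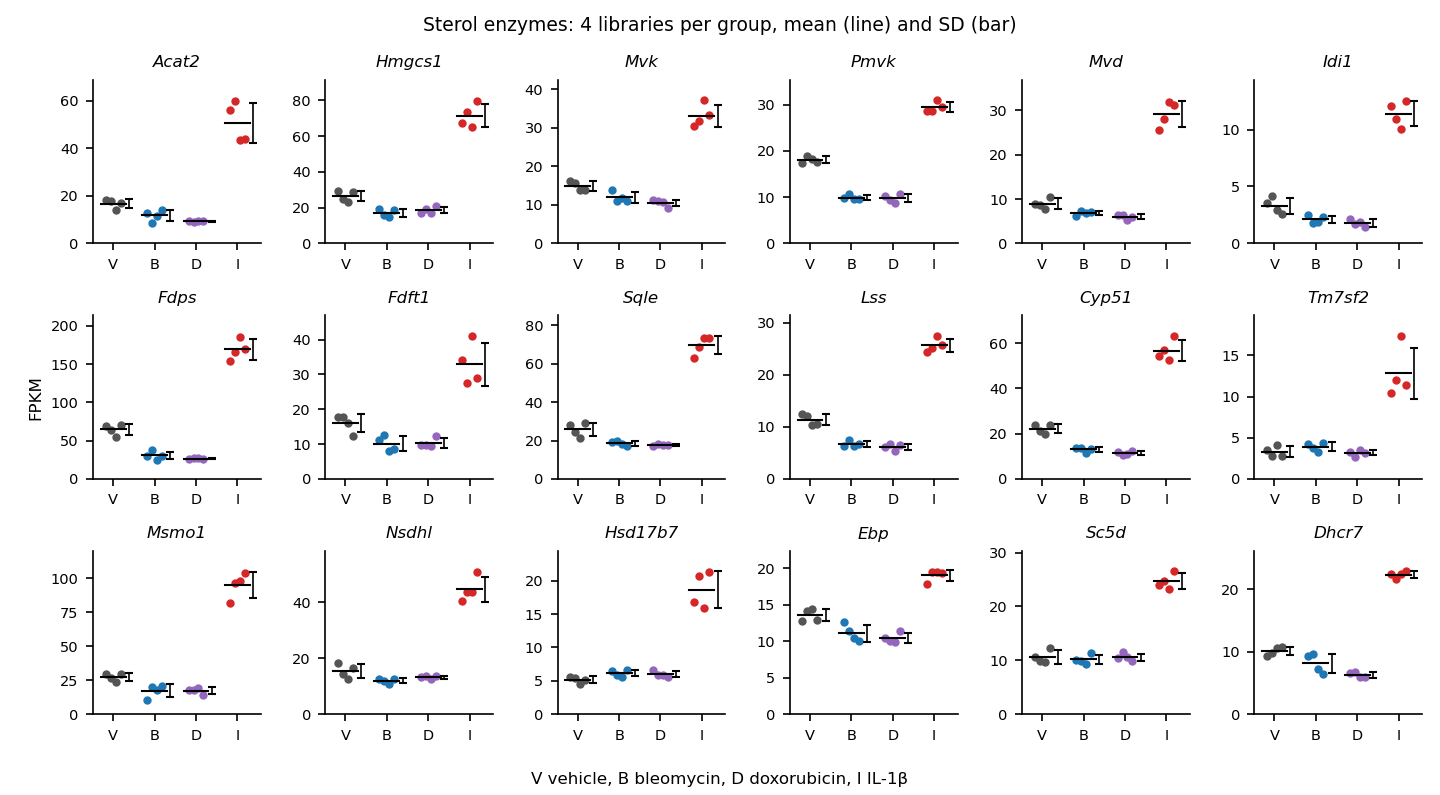
FPKM of the 18 sterol enzymes, 1 panel per gene in pathway order, with 1 point per library, a line at the mean and a bar for the SD of 4 libraries in vehicle (V), bleomycin (B), doxorubicin (D) and IL-1β (I). In every panel the 4 IL-1β points lie above all other points, and in most panels the drug points lie below vehicle.

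The first steps build mevalonate from acetyl-CoA. Acat2, the thiolase that joins acetyl-CoA units, stood at 16.7 ± 1.86 FPKM in vehicle, 11.8 ± 2.34 after bleomycin, 9.36 ± 0.165 after doxorubicin and 50.8 ± 8.42 after IL-1β. It fell 1.42-fold after bleomycin (log2 difference -0.48 ± 0.13, adjusted p = 0.00617), where 1 vehicle library lay inside the range of the treated ones, and 1.79-fold after doxorubicin without overlap (adjusted p = 0.000132). Hmgcs1 (chromosome 13, 119690379 to 119708260, GRCm38, protein coding) encodes HMG-CoA synthase. Its values were 29.2, 25, 23.2 and 28.8 FPKM in the vehicle libraries, 19.1, 16.1, 14.5 and 18.8 after bleomycin, 17.3, 19.4, 17.2 and 20.7 after doxorubicin and 67.5, 73.5, 65 and 79.8 after IL-1β. Every drug library was below every vehicle library, and every IL-1β library was above them. Hmgcs1 fell 1.55-fold after bleomycin (-0.61 ± 0.10, adjusted p = 0.000109) and 1.43-fold after doxorubicin (-0.49 ± 0.10, adjusted p = 0.000694), and rose 2.69-fold after IL-1β (1.40 ± 0.10, adjusted p = 8.99e-09).

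Mvk, Pmvk and Mvd encode the kinases and the decarboxylase that turn mevalonate into isopentenyl diphosphate. Pmvk fell from 18.1 ± 0.733 FPKM in vehicle to 9.9 ± 0.501 after bleomycin (1.82-fold, adjusted p = 3.78e-08) and 9.78 ± 0.83 after doxorubicin (1.85-fold, adjusted p = 1.88e-08). With IL-1β it reached 29.4 ± 1.11 FPKM, 1.63-fold above vehicle (adjusted p = 1.7e-07). Mvd moved less after the drugs and more after the cytokine: 8.98 ± 1.15 FPKM in vehicle, 6.82 ± 0.494 after bleomycin, 6.05 ± 0.538 after doxorubicin and 29.2 ± 2.95 after IL-1β. Mvk was at 14.9 ± 1.23 FPKM in vehicle, 12 ± 1.38 after bleomycin, 10.5 ± 0.852 after doxorubicin and 33.2 ± 2.88 after IL-1β, and its bleomycin and vehicle libraries overlapped. Idi1, the isomerase that makes the second building block, had the lowest drug-group levels of the sterol enzymes, 2.11 ± 0.331 and 1.79 ± 0.317 FPKM against 3.31 ± 0.712 in vehicle. It rose 3.44-fold to 11.4 ± 1.09 FPKM after IL-1β (1.54 ± 0.12, adjusted p = 3.1e-08).

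Fdps (chromosome 3, 89093588 to 89101959, GRCm38, protein coding) makes farnesyl diphosphate, the branch point to sterols, dolichol and protein prenylation, and was the most abundant sterol enzyme in every group. It was at 69.4, 63.7, 54.7 and 70.6 FPKM in the vehicle libraries, 29.7, 37.5, 25.3 and 30.0 after bleomycin, 25.8, 27.2, 27.4 and 25.7 after doxorubicin and 154, 166, 186 and 170 after IL-1β. The 3 ranges (vehicle, drugs, IL-1β) were fully apart. Fdps had the widest fall among the sterol enzymes, 2.11-fold after bleomycin (-1.06 ± 0.10, adjusted p = 4.37e-07) and 2.44-fold after doxorubicin (-1.25 ± 0.10, adjusted p = 5.05e-08). It rose 2.62-fold after IL-1β (1.38 ± 0.10, adjusted p = 1.3e-08). Fdft1, squalene synthase and the first enzyme committed to sterols, stood at 16 ± 2.53 FPKM in vehicle, 10.1 ± 2.11 after bleomycin, 10.3 ± 1.42 after doxorubicin and 32.9 ± 6.13 after IL-1β. Its drug and vehicle ranges overlapped, and both falls passed the test (adjusted p = 0.00321 and 0.00443).

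Sqle (chromosome 15, 59315077 to 59331192) encodes squalene epoxidase, which oxidises squalene. Its libraries read 28, 24.7, 21.5 and 29.2 FPKM in the vehicle libraries, 19.4, 19.8, 18 and 17.1 after bleomycin, 17.1, 18.1, 17.7 and 17.5 after doxorubicin and 63.3, 68.8, 73.4 and 73.5 after IL-1β. The lowest vehicle library was above the highest drug library, and every IL-1β library was above all others. The falls were 1.39-fold after bleomycin (adjusted p = 0.000315) and 1.47-fold after doxorubicin (adjusted p = 7.09e-05), and the rise 2.7-fold (1.40 ± 0.08, adjusted p = 9.43e-10). Lss closes the ring to lanosterol, and Cyp51 removes the first methyl group. Lss stood at 11.4 ± 1.06 FPKM in vehicle, 6.69 ± 0.555 after bleomycin, 6.13 ± 0.577 after doxorubicin and 25.7 ± 1.27 after IL-1β, and Cyp51 at 22.2 ± 1.87 FPKM in vehicle, 13 ± 0.997 after bleomycin, 11.4 ± 0.842 after doxorubicin and 56.7 ± 4.63 after IL-1β. Each treated group of both genes was apart from vehicle, with Cyp51 1.71-fold lower after bleomycin (adjusted p = 1.41e-06), 1.95-fold lower after doxorubicin (adjusted p = 1.01e-07) and 2.55-fold higher after IL-1β (adjusted p = 9.9e-10).

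The remaining enzymes reduce, demethylate and rearrange lanosterol to cholesterol. Msmo1 (chromosome 8, 64718139 to 64733792), the methylsterol oxidase, read 29.4, 26.9, 23.7 and 29.4 FPKM in the vehicle libraries, 10.7, 20.4, 17.7 and 20.6 after bleomycin, 18.2, 17.7, 19.7 and 14.1 after doxorubicin and 81.9, 96.5, 98.2 and 104 after IL-1β. In bleomycin 1 library was below the other 3, at 10.7 FPKM, and the vehicle and drug ranges did not overlap. Msmo1 fell 1.58-fold (-0.66 ± 0.16, adjusted p = 0.0029) and 1.57-fold (-0.62 ± 0.16, adjusted p = 0.00411) after the drugs and rose 3.48-fold after IL-1β (1.76 ± 0.16, adjusted p = 1.83e-07). Hsd17b7, a ketosteroid reductase acting with Msmo1 and Nsdhl, was at 5.61, 5.48, 4.54 and 5.14 FPKM in the vehicle libraries, 6.43, 5.91, 5.62 and 6.63 after bleomycin, 6.7, 5.9, 5.85 and 5.66 after doxorubicin and 16.8, 20.6, 15.9 and 21.3 after IL-1β. All of its drug libraries were above all vehicle libraries, yet neither difference passed the test (0.21 ± 0.09, adjusted p = 0.0801 for bleomycin and 0.18 ± 0.09, adjusted p = 0.118 for doxorubicin). It rose 3.59-fold after IL-1β (1.66 ± 0.09, adjusted p = 6.32e-10).

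Tm7sf2, a sterol reductase, and Sc5d, a sterol desaturase, passed the test after neither drug. Tm7sf2 was at 3.3 ± 0.667 FPKM in vehicle, 3.92 ± 0.537 after bleomycin, 3.19 ± 0.336 after doxorubicin and 12.8 ± 3.06 after IL-1β (adjusted p = 0.257 and 0.879 for the drugs), and Sc5d at 10.7 ± 1.24 FPKM in vehicle, 10.2 ± 0.85 after bleomycin, 10.6 ± 0.692 after doxorubicin and 24.6 ± 1.47 after IL-1β (adjusted p = 0.611 and 0.968). With IL-1β they rose 3.88-fold and 2.32-fold (adjusted p = 6.26e-08 and 6.42e-09). Nsdhl, the dehydrogenase of the demethylation complex, stood at 15.5 ± 2.39 FPKM in vehicle, 12 ± 0.918 after bleomycin, 13.3 ± 0.496 after doxorubicin and 44.7 ± 4.43 after IL-1β, fell after bleomycin (adjusted p = 0.00844) and did not pass after doxorubicin (adjusted p = 0.1). Without vehicle replicate 3 the doxorubicin difference of Nsdhl passed (-0.28, adjusted p = 0.0154), as it did with median-of-ratios scaling (-0.23, adjusted p = 0.0485). Ebp, the sterol isomerase, moved least with IL-1β, from 13.6 ± 0.831 to 19 ± 0.805 FPKM, and was at 11.1 ± 1.15 and 10.5 ± 0.652 after the drugs. Dhcr7, the reductase of the last step, stood at 10.1 ± 0.657 FPKM in vehicle, 8.15 ± 1.54 after bleomycin, 6.32 ± 0.457 after doxorubicin and 22.3 ± 0.548 after IL-1β. Its bleomycin call (-0.29, adjusted p = 0.0206) was lost without bleomycin replicate 3 (-0.24, adjusted p = 0.0682), bleomycin replicate 4 (-0.20, adjusted p = 0.0769) or vehicle replicate 4 (-0.26, adjusted p = 0.0566). A fit of those 2 groups alone lost it too (-0.29, adjusted p = 0.0667).

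Some transcripts share sequence with other genes, so their reads could be split. Of the 100-base windows in their annotated transcripts, 28.9% for Acat2, 21.4% for Fdps, 15.8% for Idi1 and 7.92% for Tm7sf2 also occur in some other gene. The genes that share the most windows with them are Acat3, Gm43738, Gm13502 and Vps51. Acat3, Gm43738 and Gm13502 reached at most 1.49, 0.557 and 4.24 FPKM in any library, and Vps51 was at 11.6 to 18.1 FPKM. Their part in these values was not tested. For Acaca, a fatty acid enzyme, 23.7% of windows occur in some other gene, and Gm5182, which shares the most, reached at most 0.920 FPKM. Hmgcs1, Fdft1, Lss, Cyp51, Acaca, Srebf1 and others overlap a gene on the other strand. Fdps, Tm7sf2, Acly, Scd2, Fads1 and Srebf2 overlap genes on their own strand only. The sources used here do not state whether strand was used in counting.

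**Figure D3:**
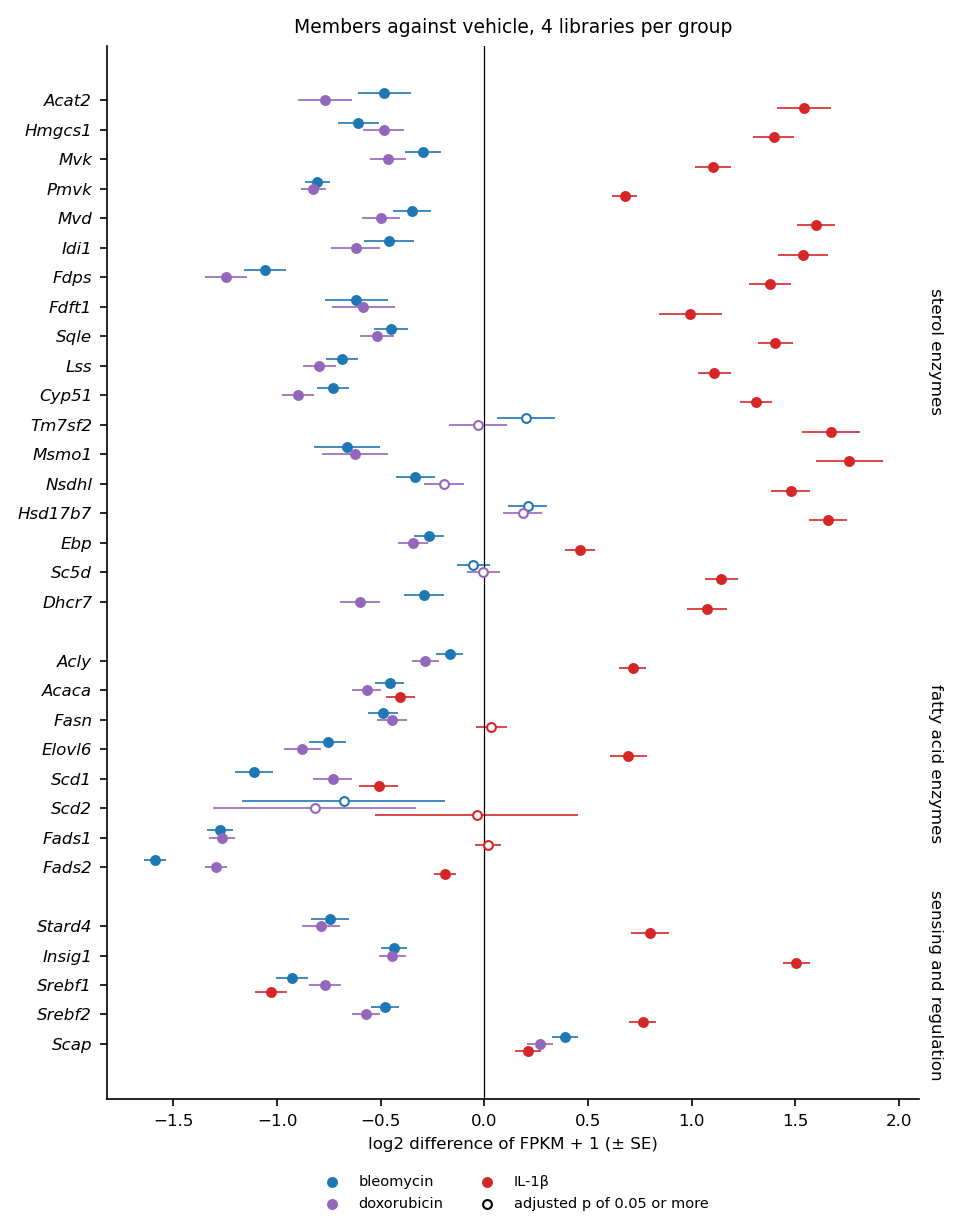
Log2 differences from vehicle (horizontal axis, log2 of FPKM + 1, bars are SE) of all 31 genes after bleomycin, doxorubicin and IL-1β, 4 libraries per group, with open points for an adjusted p of 0.05 or more. IL-1β points lie right of 0 for every sterol enzyme, while the fatty acid enzymes scatter on both sides of it.

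Most fatty acid enzymes also fell after the drugs. Of 8, 7 fell after bleomycin and none rose (median -0.72 on the log2 scale), where 19.0% of all tested genes fell and 27.9% rose. After doxorubicin 7 fell and none rose (median -0.78), against 22.8% and 25.4% of all genes. After IL-1β 2 rose (Acly, Elovl6), 3 fell (Acaca, Scd1, Fads2) and 3 did not pass (median -0.01). Over all genes 24.5% rose and 18.4% fell there, so the count of rises among the 8 is near the background. The synthesis arm begins with Acly, which splits citrate into acetyl-CoA for sterols and fatty acids alike. Acly (chromosome 11, 100476353 to 100528000) read 53.1, 52.9, 49.7 and 54.8 FPKM in the vehicle libraries, 45.4, 46.1, 47.6 and 48 after bleomycin, 43.4, 45.5, 39.5 and 43.9 after doxorubicin and 80.2, 83.4, 85.1 and 101 after IL-1β. It rose 1.66-fold after IL-1β (0.72 ± 0.07, adjusted p = 2.02e-07) and fell 1.22-fold after doxorubicin (adjusted p = 0.00189). Its fall after bleomycin was small (-0.17 ± 0.07, adjusted p = 0.0479), and the call was lost without any 1 of the 4 bleomycin libraries or of vehicle replicates 1, 2 and 4 (adjusted p = 0.06 to 0.115), with no filter (adjusted p = 0.0808) and with quantile normalization (adjusted p = 0.0605).

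Acaca and Fasn, the carboxylase and the synthase that build palmitate, did not rise with IL-1β. Acaca fell in every treated group: 11.5 ± 0.362 FPKM in vehicle, 8.12 ± 0.421 after bleomycin, 7.46 ± 0.647 after doxorubicin and 8.47 ± 0.746 after IL-1β (log2 differences -0.46, -0.57 and -0.41; adjusted p = 6.35e-05, 5.81e-06 and 0.000193). Fasn stood at 23.1 ± 1.01 FPKM in vehicle, 16.2 ± 1.15 after bleomycin, 16.7 ± 0.977 after doxorubicin and 23.7 ± 2.36 after IL-1β. Fasn fell after both drugs (adjusted p = 4.88e-05 and 9.78e-05), with an IL-1β difference of 0.03 ± 0.07 (adjusted p = 0.738). Elovl6 (chromosome 3, 129532355 to 129638495), which lengthens palmitate to stearate, read 10.3, 11.6, 9.48 and 9.82 FPKM in the vehicle libraries, 6.05, 5.65, 5.16 and 5.83 after bleomycin, 5.53, 5.78, 4.97 and 4.33 after doxorubicin and 18.8, 17, 14.9 and 18.3 after IL-1β. Its groups did not overlap vehicle: 1.81-fold and 2.00-fold lower after the drugs (adjusted p = 4.79e-06 and 7.32e-07) and 1.68-fold higher after IL-1β (adjusted p = 1.02e-05).

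**Figure D4:**
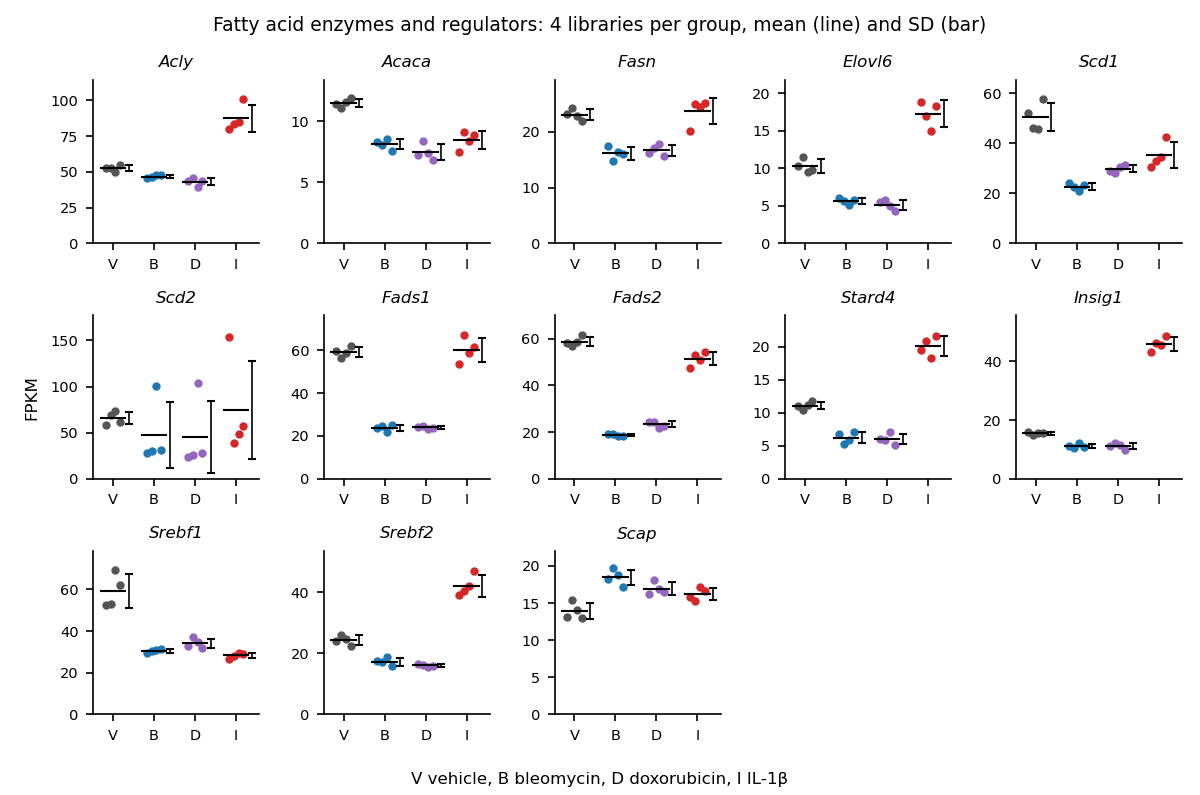
FPKM of the 8 fatty acid enzymes and the 5 sensing and regulation genes, 1 panel per gene, with 1 point per library, a line at the mean and a bar for the SD of 4 libraries in vehicle (V), bleomycin (B), doxorubicin (D) and IL-1β (I). Fads1 and Fads2 drop after the drugs but stay near vehicle after IL-1β, and Scd2 has 1 library far above the others in each treated group.

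Desaturases put double bonds into fatty acids, and Fads2 and Fads1 had the widest falls of the set after either drug. Fads2 (chromosome 19, 10062765 to 10101746), the first desaturase of polyunsaturated fatty acid synthesis, read 58.1, 56.8, 58.5 and 61.4 FPKM in the vehicle libraries, 19.3, 19.2, 18.2 and 18.5 after bleomycin, 24.4, 24.5, 21.8 and 22.7 after doxorubicin and 47.5, 52.9, 51 and 54.1 after IL-1β. The ranges of the 4 groups were apart, with vehicle highest and bleomycin lowest. Fads2 fell 3.12-fold after bleomycin (-1.59 ± 0.05, adjusted p = 9.48e-12), 2.52-fold after doxorubicin (-1.30 ± 0.05, adjusted p = 3.68e-11) and 1.14-fold after IL-1β (-0.19 ± 0.05, adjusted p = 0.00845). Fads1 (chromosome 19, 10182888 to 10196877), its neighbour on the chromosome and the next desaturase of the same route, read 59.6, 56.5, 58.5 and 62 FPKM in the vehicle libraries, 23.5, 24.8, 22.1 and 25 after bleomycin, 24, 24.7, 23.4 and 23.9 after doxorubicin and 53.6, 67, 58.5 and 61.5 after IL-1β. Fads1 fell 2.48-fold and 2.47-fold after the drugs (adjusted p = 3.83e-10 and 2.4e-10), and its IL-1β libraries spanned the vehicle ones (0.02 ± 0.06, adjusted p = 0.829).

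Scd1 (chromosome 19, 44394455 to 44407879), which makes oleate and palmitoleate, fell in every treated group. Its values were 52.1, 46.2, 45.8 and 57.6 FPKM in the vehicle libraries, 24, 22.6, 20.9 and 23.5 after bleomycin, 29.1, 28.3, 30.6 and 31.4 after doxorubicin and 30.6, 33, 34.7 and 42.6 after IL-1β. It was 2.22-fold lower after bleomycin (-1.11 ± 0.09, adjusted p = 9.61e-08), 1.69-fold lower after doxorubicin (-0.73 ± 0.09, adjusted p = 6.57e-06) and 1.43-fold lower after IL-1β (-0.51 ± 0.09, adjusted p = 0.000271). Its paralog Scd2 (chromosome 19, 44293674 to 44306864) read 58.9, 68.9, 73.1 and 62.2 FPKM in the vehicle libraries, 28.2, 30.3, 101 and 31 after bleomycin, 24.2, 25.4, 104 and 28 after doxorubicin and 154, 38.5, 48.8 and 57.4 after IL-1β. In each treated group 1 library stood far above the other 3: bleomycin replicate 3, doxorubicin replicate 3 and IL-1β replicate 1. No Scd2 comparison with vehicle passed (adjusted p = 0.275, 0.183 and 0.961). Without doxorubicin replicate 3 the doxorubicin difference of Scd2 was -1.31 (adjusted p = 0.0208), against -0.82 ± 0.49 with it. Scd1 and Scd2 share few transcript windows with other genes (2.58% and 0.879%), and in the same 3 libraries Scd1 read 20.9, 30.6 and 30.6 FPKM.

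Adipocytes carry much of the same fatty acid machinery, and their markers moved with treatment. The summed level of 8 adipocyte markers was 32.3 to 38.2 FPKM in vehicle, 66.8 to 76.9 after bleomycin, 143 to 190 after doxorubicin and 353 to 392 after IL-1β. Most of that sum was Fabp4; Lep, Retn and Cidec were at 0 in every vehicle library, Lep in every bleomycin library, and Cfd, Lep and Retn in every IL-1β library. Fabp4 and Pparg rose in each comparison with vehicle. Adipoq, Cfd and Plin1 passed the filter on low values only through the drug groups, so their rise there is not counted. Macrophage markers summed to 9.21 to 11.1 FPKM in vehicle and 17.1 to 18.7 after bleomycin. Their sums were 20.2 to 25.0 FPKM after doxorubicin and 30.0 to 35.5 after IL-1β. Of these 8 markers 4 were tested, and 3 of the 4 rose in each comparison with vehicle. The fourth, Mrc1, passed the filter on low values only through the vehicle and drug groups, so its fall after IL-1β is not counted. Synovial fibroblast markers summed to 48.5 to 75.5, 107 to 141, 157 to 212 and 113 to 139 FPKM in the same order. Of these 5 markers, 3, 4 and 2 of the 4 tested rose, and Thy1 fell after IL-1β. Over all tested genes 27.9% rose and 19.0% fell after bleomycin, 25.4% and 22.8% after doxorubicin, and 24.5% and 18.4% after IL-1β. Osteoblast markers summed to between 11.8 and 20.2 FPKM in all groups, but single ones moved: of the 3 tested, Sp7 fell after each drug (-0.60 and -0.92), Ibsp fell after IL-1β (-1.20), and Bglap passed the filter only through the treated groups. The part of these markers in the results was not tested.

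The regulators did not move as 1 block. Of the 5, 4 fell and 1 (Scap) rose after each drug, and 4 rose and 1 (Srebf1) fell after IL-1β. Of all tested genes, 19.0% fell and 27.9% rose after bleomycin, 22.8% fell and 25.4% rose after doxorubicin, and 24.5% rose and 18.4% fell after IL-1β. Srebf2 (chromosome 15, 82147181 to 82205379), which encodes the sterol-directed SREBP2, read 24.1, 26.1, 24.8 and 22.5 FPKM in the vehicle libraries, 17.3, 17, 18.8 and 15.7 after bleomycin, 16.5, 16.3, 15.6 and 15.8 after doxorubicin and 39.1, 40.3, 41.9 and 47.1 after IL-1β. Its groups were apart from vehicle, 1.42-fold lower after bleomycin (adjusted p = 2.35e-05), 1.52-fold lower after doxorubicin (adjusted p = 2.94e-06) and 1.73-fold higher after IL-1β (0.76 ± 0.07, adjusted p = 1.11e-07). Srebf1 (chromosome 11, 60199089 to 60222581), which encodes SREBP1, read 52.4, 53.2, 69.2 and 62.1 FPKM in the vehicle libraries, 29.2, 30.2, 31.1 and 31.3 after bleomycin, 33.1, 37.1, 34.7 and 31.9 after doxorubicin and 26.6, 28.2, 29.4 and 29.2 after IL-1β. Here the IL-1β libraries were below vehicle too, 2.09-fold (-1.03 ± 0.08, adjusted p = 1.91e-08), beside falls of 1.94-fold after bleomycin (-0.93 ± 0.08, adjusted p = 1.08e-07) and 1.73-fold after doxorubicin (-0.77 ± 0.08, adjusted p = 6.25e-07). FPKM per gene does not separate the SREBP1a and SREBP1c transcripts.

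Insig1 (chromosome 5, 28071363 to 28078662), an anchor that keeps SCAP in the endoplasmic reticulum and is itself an SREBP target, read 16.1, 14.9, 15.6 and 15.6 FPKM in the vehicle libraries, 11.3, 10.6, 12.1 and 10.8 after bleomycin, 11.2, 12.3, 11.4 and 9.78 after doxorubicin and 43.2, 46.2, 45.7 and 48.6 after IL-1β. It fell 1.38-fold and 1.39-fold after the drugs (adjusted p = 4.66e-05 and 3.17e-05) and rose 2.96-fold after IL-1β (1.50 ± 0.06, adjusted p = 2.66e-11). Stard4, a carrier of cholesterol between membranes, had the same directions: 11.1 ± 0.556 FPKM in vehicle, 6.25 ± 0.88 after bleomycin, 6.03 ± 0.771 after doxorubicin and 20.1 ± 1.5 after IL-1β (adjusted p = 8.17e-06, 3.51e-06 and 3.16e-06). Scap, the escort of the SREBPs, rose in every treated group, from 13.9 ± 1.09 FPKM to 18.5 ± 1.03 after bleomycin (0.39 ± 0.06, adjusted p = 0.000113), 16.9 ± 0.847 after doxorubicin (0.27 ± 0.06, adjusted p = 0.00228) and 16.2 ± 0.829 after IL-1β (0.21 ± 0.06, adjusted p = 0.0134). The Scap rise after IL-1β was lost with median-of-ratios scaling (0.16, adjusted p = 0.0712) and with quantile normalization (0.16, adjusted p = 0.0578).

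The drugs were then set against each other and, as their mean, against IL-1β; the latter comparison does not use vehicle. Against IL-1β all 18 sterol enzymes were lower, where 29.5% of all genes were lower and 28.5% higher, with a median of -1.79 (all genes 0.00). Fdps differed most (-2.53 ± 0.09, adjusted p = 9.6e-13), 5.52-fold lower after bleomycin and 6.38-fold lower after doxorubicin. Msmo1 followed with -2.40 ± 0.14 and Acat2 with -2.17 ± 0.11. Of the fatty acid enzymes 6 of 8 were lower (median -0.83), from Scd1 (-0.41 ± 0.08) to Elovl6 (-1.51 ± 0.08). Acaca did not pass (-0.11 ± 0.06, adjusted p = 0.147), though it did without IL-1β replicate 1 (-0.16, adjusted p = 0.0377). Scd2 did not pass either (-0.71 ± 0.42, adjusted p = 0.163), but passed without bleomycin replicate 3 (-0.93, adjusted p = 0.0474) or doxorubicin replicate 3 (-0.96, adjusted p = 0.0306). Among the regulators Stard4, Insig1 and Srebf2 were lower (-1.57, -1.94 and -1.29). Srebf1 was higher by a small step (0.18 ± 0.07, adjusted p = 0.0299), a call lost without doxorubicin replicate 2 (0.16, adjusted p = 0.0552), IL-1β replicate 1 (0.15, adjusted p = 0.0995) or IL-1β replicate 2 (0.18, adjusted p = 0.0602) and with no filter (0.18, adjusted p = 0.0557). Scap did not pass (0.12 ± 0.06, adjusted p = 0.0764).

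Doxorubicin and bleomycin differed in 2 of the 31 genes, both desaturases and both higher after doxorubicin. Of all genes 4.18% were higher and 5.85% lower there, so this count is near the background. Fads2 was 1.24-fold higher (0.29 ± 0.05, adjusted p = 0.00204), and its doxorubicin libraries were all above its bleomycin ones. Scd1 was 1.31-fold higher (0.38 ± 0.09, adjusted p = 0.0155), likewise without overlap, and its call was lost without bleomycin replicate 3 (0.34, adjusted p = 0.0518). None of the 18 sterol enzymes passed this test in limma, and 3 had an unadjusted p under 0.05. Dhcr7 came closest (-0.31 ± 0.10, adjusted p = 0.0533); it passed without bleomycin replicate 3 (-0.36, adjusted p = 0.048) or bleomycin replicate 4 (-0.40, adjusted p = 0.00952), and with a 5 FPKM filter (-0.31, adjusted p = 0.0481). Acat2 passed without bleomycin replicate 2 (-0.42, adjusted p = 0.0362). A p above the threshold does not show that the drugs act alike, and their dose, length and handling differ. The adipocyte markers Adipoq, Cfd, Plin1 and Fabp4 were higher after doxorubicin than after bleomycin (4 of 5 tested), as Scd1 and Fads2 were. So were the synovial fibroblast markers Prg4, Thy1 and Cd55 (3 of 4 tested) and the macrophage marker Lyz2 (1 of 4 tested). Of the 9 chondrocyte markers 1 was lower and none higher. Against vehicle, Fabp4 and Pparg were higher after each drug, while Scd1 and Fads2 were lower. The part of these markers in the differences was not tested.

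**Figure D5:**
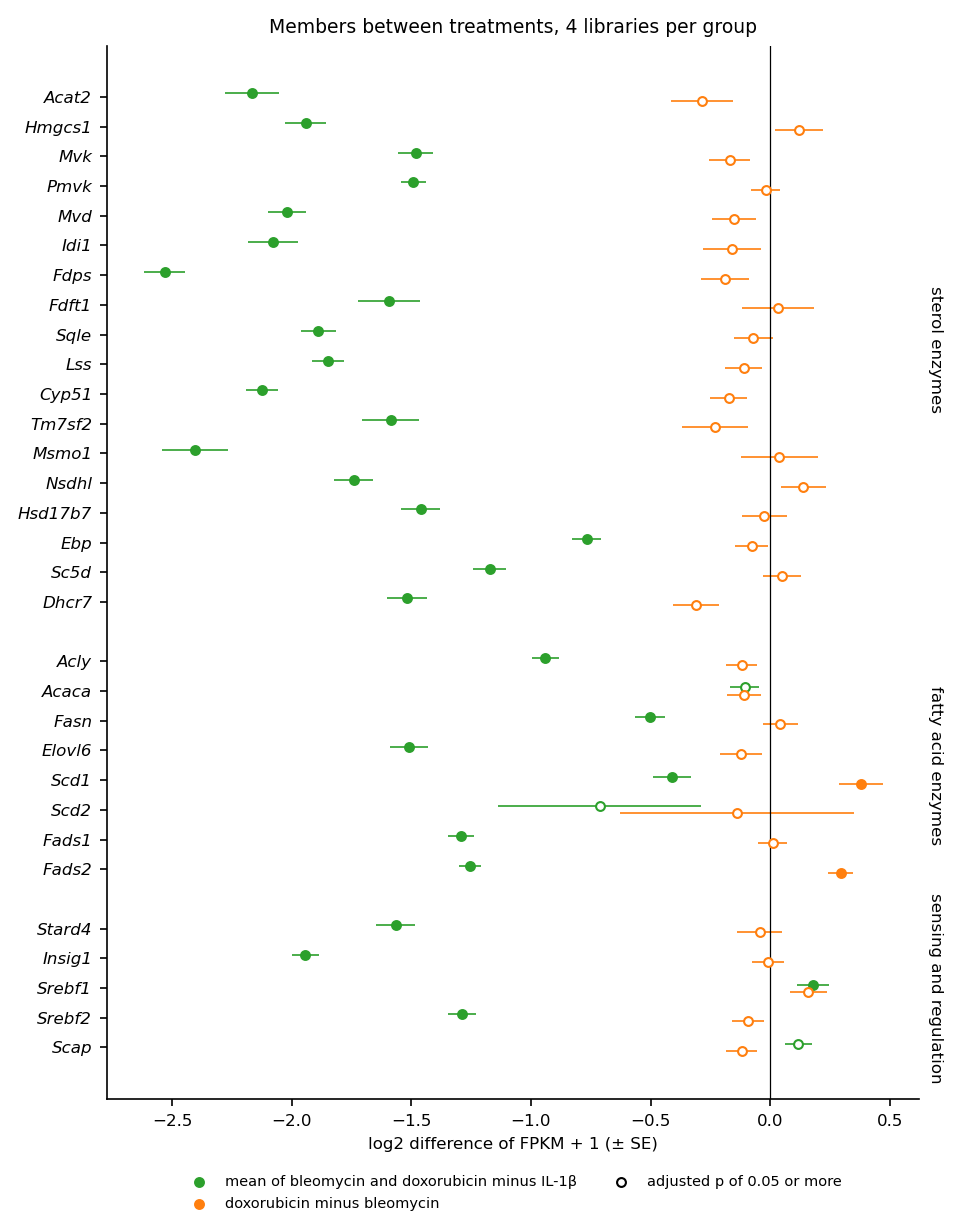
Log2 differences (horizontal axis, log2 of FPKM + 1, bars are SE) of the 31 genes for the mean of bleomycin and doxorubicin minus IL-1β and for doxorubicin minus bleomycin, 4 libraries per group, with open points for an adjusted p of 0.05 or more. The sterol enzymes lie far left of 0 against IL-1β and near 0 between the drugs, where only Scd1 and Fads2 are filled.

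Other genes of the pathway were listed apart from the 31. Their counts stand against all tested genes, of which 27.9% rose and 19.0% fell after bleomycin, 25.4% and 22.8% after doxorubicin, and 24.5% and 18.4% after IL-1β. Of 10 further sterol genes 8 were tested: 5 fell and 1 rose after bleomycin, 5 fell and 1 rose after doxorubicin, and 3 rose and 1 fell after IL-1β. Lbr, a nuclear envelope protein with sterol reductase activity, fell from 13.6 ± 0.799 FPKM to 7.01 ± 0.395 and 4.57 ± 0.589 after the drugs and was at 13.1 ± 0.79 after IL-1β. Tmem97, the sigma receptor of the endoplasmic reticulum, was at 55.8 ± 3.1 FPKM in vehicle, 30.2 ± 1.32 after bleomycin, 28.6 ± 1.61 after doxorubicin and 71.5 ± 3.77 after IL-1β.

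Of 10 genes of SREBP processing and sterol-regulated turnover 9 were tested: 6 rose and 1 fell after bleomycin, 3 rose and 1 fell after doxorubicin, and 1 rose and 4 fell after IL-1β. Insig2, the other INSIG, rose after each drug, unlike Insig1: 26.2 ± 2.37 FPKM in vehicle, 45 ± 0.951 after bleomycin, 39.1 ± 3.79 after doxorubicin and 30.8 ± 1.46 after IL-1β (log2 differences 0.77, 0.56 and 0.23). Erlin1, a protein of the endoplasmic reticulum, was the gene of this list that fell after the drugs, and it fell after IL-1β too (36.3 ± 2.34 FPKM in vehicle, 25.2 ± 1.03 and 21.4 ± 0.444 after the drugs and 25.3 ± 0.938 after IL-1β). Of 13 genes of sterol uptake, storage and traffic, 4 rose and 3 fell after bleomycin, 3 rose and 4 fell after doxorubicin, and 7 rose and 3 fell after IL-1β. The drug counts are near the background of 27.9% and 19.0% for bleomycin and 25.4% and 22.8% for doxorubicin, and 1 of the 7 passed the filter on low values only through the IL-1β libraries. Npc2, the lysosomal cholesterol carrier, rose in each treated group, from 47.6 ± 3.69 FPKM to 98.4 ± 3.65, 120 ± 14.6 and 117 ± 2.63. Scarb1, a lipoprotein receptor, rose to 51.3 ± 4.21 FPKM after IL-1β from 27.9 ± 0.715 in vehicle. It was below vehicle after the drugs, at 20.3 ± 0.867 FPKM after bleomycin and 18.2 ± 0.768 after doxorubicin. Lrp8 fell from 6.36 ± 0.588 FPKM to 2.95 ± 0.303 and 1.88 ± 0.32 after the drugs and was at 5.89 ± 0.484 after IL-1β.

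Of 30 further fatty acid genes 23 were tested: 3 rose and 7 fell after bleomycin, 2 rose and 9 fell after doxorubicin, and 10 rose and 1 fell after IL-1β. The shares of all tested genes were 27.9% higher and 19.0% lower, 25.4% and 22.8%, and 24.5% and 18.4%. Acsl3, which activates fatty acids and coats new lipid droplets, fell from 12.4 ± 0.651 FPKM to 6.1 ± 0.331 and 6.34 ± 0.454 after the drugs and rose to 15.5 ± 0.78 after IL-1β. Lpin1, a phosphatase of triglyceride synthesis, rose in every treated group (3.41 ± 0.216 FPKM in vehicle, 5.79 ± 0.523 after bleomycin, 6.01 ± 1.11 after doxorubicin and 6.71 ± 1.14 after IL-1β). Fads3, in the same gene cluster as Fads1 and Fads2, fell after the drugs (-0.48 and -0.59) and differed by 0.06 after IL-1β (adjusted p = 0.518).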

How the data were processed

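The deposited values are FPKM, 1 table per library, computed by the authors; per the submitters' processing notes, Trimmomatic, STAR and build GRCm38 were used. The tool that computed FPKM, its annotation, its filters and its use of strand are not given in the sources used here. Depth was estimated from the steps between low FPKM values of genes with 1 transcript of at least 1000 bases. Between 68.2% and 72.1% of low values were whole fragments within 0.1, so counts were not recovered and no count test was run. Identifiers matched GENCODE M21 for 55104 genes without version, and 30 of the 31 genes had the same version (all but Fdft1). At most 0.00809% of values were equal between replicates of a group.

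Values were used as log2(FPKM + 1) with no further scaling. The 12976 genes that reached 1 FPKM in 4 or more of the 16 libraries were fitted together with limma 3.58.1 in R 4.3.3, with a mean-variance trend, 12 residual degrees of freedom and two-sided tests. Adjusted p-values (Benjamini-Hochberg) span all tested genes of a comparison. The fit was tested on simulated data. Promoters, annotation and figures used Python 3.11.15 (numpy 2.4.6, pandas 2.3.3, matplotlib 3.10.9). Alternatives were pseudocount 0.1, no filter, a 5 FPKM filter, median-of-ratios and quantile scaling, fits of the compared groups alone, a replicate block and leaving out each library. All 31 members were named, and of each other list at most the 3 with the largest absolute log2 difference among those called in a comparison. Members and lists were chosen with earlier results of these data known. Some genes of the lists are counted but not reported by name here. Faxdc2 and Spring1 had no row under those symbols.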

Additional observations from a re-analysis of the deposited data

Results flagged for a closer look

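In each group of 4 libraries, the gap between the highest or lowest library and its nearest neighbour was divided by the range and set against Dixon's critical value of 0.829. Of 176 gene and group combinations (44 genes), 8 were above it; chance flags about 1 in 20. Scd2, a stearoyl-CoA desaturase, stood out 3 times. Bleomycin replicate 3 was at 101 FPKM against 28.2 to 31 in the other 3 (ratio 0.963), doxorubicin replicate 3 at 104 against 24.2 to 28.0 (0.952), and IL-1β replicate 1 at 154 against 38.5 to 57.4 (0.836). Fdft1, squalene synthase, was highest in doxorubicin replicate 4, at 12.4 FPKM against 9.35 to 9.80 (0.852). In IL-1β replicate 1, Ebp was lowest at 17.8 FPKM against 19.3 to 19.5 (0.872), and Fasn was lowest at 20.2 against 24.5 to 25.1 (0.868). Tmem97 was lowest in doxorubicin replicate 4, at 26.2 FPKM against 29.4 in each of the others (0.981). Npc2 was highest in bleomycin replicate 4, at 104 FPKM against 95.8 to 97.0 (0.843).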

How the results depend on the processing

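Of 2449 values (1 gene, 1 comparison, 1 alternative), 2419 kept their side of the threshold, 20 lost and 10 gained a call. None that was called in either fit turned direction. A change of direction where neither fit made a call was not counted. Between the drugs, the number of sterol enzymes called went from 0 to 1 with the 5 FPKM filter and ranged from 0 to 1 with 1 library left out (1 without bleomycin replicate 2, 3 or 4). The number of fatty acid enzymes called there ranged from 1 to 2, with 1 without bleomycin replicate 3. In the other comparisons the counts over left-out libraries were 14 to 15 sterol and 6 to 7 fatty acid enzymes after bleomycin, 14 to 15 and 7 to 8 after doxorubicin, 18 and 5 after IL-1β, and 18 and 6 to 7 for the drug mean with IL-1β.

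Scaling moved the share of higher calls over all genes: 59.5% as deposited, 47.7% under median-of-ratios and 48.3% under quantile scaling after bleomycin, 57.1%, 48.4% and 44% after IL-1β, and 41.7%, 60.3% and 53.4% between the drugs. Replicate numbers were not stated to pair libraries. Same-numbered libraries correlated in their deviations by -0.02 to 0.21 (6 of 24 pairs over 0.1), and 13 of 16 correlated best with their own number, a hint from the data and not from the design. With the replicate block 0 of the 155 member calls changed: 15 sterol and 7 fatty acid enzymes were called after bleomycin, 14 and 7 after doxorubicin, 18 and 5 after IL-1β, 0 and 2 between the drugs, and 18 and 6 for the drug mean with IL-1β. Calls over all genes with the block were 6209, 6441, 5735, 1488 and 7689, against 6086, 6262, 5574, 1301 and 7529 without it. Depth is an estimate, so no counting error is given for single values.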
